A study of Arabidopsis thaliana with 12 samples.

Results

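Expansins are proteins of the plant cell wall that loosen the contacts between wall polymers and so let a cell enlarge without cutting its wall. The superfamily in Arabidopsis thaliana holds the alpha-expansins (EXPA), the beta-expansins (EXPB) and the expansin-like families A and B (EXLA and EXLB), whose activity on walls is less well known. EXPA7 and EXPA18 are alpha-expansins of root hairs, the tubular outgrowths of root epidermal cells, and are known for their part in starting and extending the hair. The genes described here are EXPA7 (AT1G12560), EXPA18 (AT1G62980), EXPA8 (AT2G40610), EXPA4 (AT2G39700), EXLA1 (AT3G45970) and EXLA2 (AT4G38400), chosen by name as 6 of the 13350 genes to which the array annotation assigned a probe set of their own. Each was read from its 1 probe set, and the root hair genes EXPA7 and EXPA18 were set against the other 4. The choice was made with earlier results of these data known.

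Whole 7-day-old seedlings of the Columbia-0 background were profiled on Affymetrix Arabidopsis arrays in 6 groups of 2 biological replicates, 12 arrays in all. HRE1ox seedlings carried 35S::HRE1, HRE2ox seedlings carried 35S::HRE2, and WT seedlings were untransformed Col-0; the 35S promoter drives expression in most tissues, and the labels do not say how many independent lines stood behind each transgene. HRE1 and HRE2 are ethylene response factors whose transcripts accumulate when oxygen is short. All plants had germinated in air on agar with sucrose, and were then kept in the dark at 23 °C for 4 h with 1% O2 (hypoxia) or 21% O2 (air), so darkness was common to both conditions. In RNA from whole seedlings, fewer cells of a type and less RNA per cell cannot be told apart, which bears most on the root hair genes. Levels are given as log2(intensity + 1), and a difference is hypoxia minus air or line minus WT on that scale. A change was called when limma's Benjamini-Hochberg adjusted p over 13687 tested probe sets was under 0.05. Low probe sets were left out of the test by asking for log2 4, an intensity of 15, on 2 arrays or more, and all 6 genes passed. Levels of different genes come from different probe sets and are not compared with each other.

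Median intensity lay between 32.7 and 35.7 on the 12 arrays. On 4 of them, replicate 1 of both HRE1ox and both WT groups, the 5′ probe set of thr, a control transcript added during sample preparation, read 8.09 to 8.36, against 3.10 to 4.57 on the other 8. On the same 4 arrays the 3′ probe set of the GAPDH control exceeded its 5′ probe set by 1.88 to 2.20, against 2.41 to 2.94 on the other 8. Results that differ without these arrays are given with both values. Leaving them out leaves 1 array in each HRE1ox and WT group, so the spread in that fit comes from the HRE2ox arrays alone. The ecotype entry of WT air replicate 2 names 35S::HRE2 while its title names wild type. The title was followed. A probe set with no assigned gene, picked after its values were seen because it read 14.40 to 14.52 on the 4 HRE2ox arrays, read 3.23 on that array and 3.39 on WT air replicate 1. The transgene transcripts themselves were not analysed here. Of the tissue markers, PYK10, a beta-glucosidase abundant in roots, read 12.76 to 13.60 and PORB, a chlorophyll synthesis enzyme of green tissue, read 9.96 to 11.10, so both tissues were represented.

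Of the 6 genes, 5 responded to hypoxia in each genotype, and EXPA4 did not pass the test in any. EXPA7, EXPA18, EXLA1 and EXLA2 fell and EXPA8 rose in HRE1ox, in HRE2ox and in WT seedlings. The called share was thus 5 of 6 genes in each genotype, where the test called 12.4% of all tested probe sets in HRE1ox (5.31% higher and 7.08% lower), 6.96% in HRE2ox (3.38% higher and 3.58% lower) and 6.58% in WT (3.31% higher and 3.27% lower). The median difference of the 6 genes was -1.72 in HRE1ox, -1.24 in HRE2ox and -1.09 in WT, beside medians over all tested probe sets of 0.00, -0.03 and -0.01. Being called lower in all 3 genotypes held for 4 of the 6 genes and for 2.14% of tested probe sets, and being called higher in all 3 held for 1 gene and for 2.19%. In the same model, the mean response over the 3 genotypes was called for the same 5 genes, beside 22.3% of tested probe sets (9.49% higher and 12.8% lower). Because the 6 genes were chosen with earlier results of these data known, their shares are not a test of the family.

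**Figure D1:**
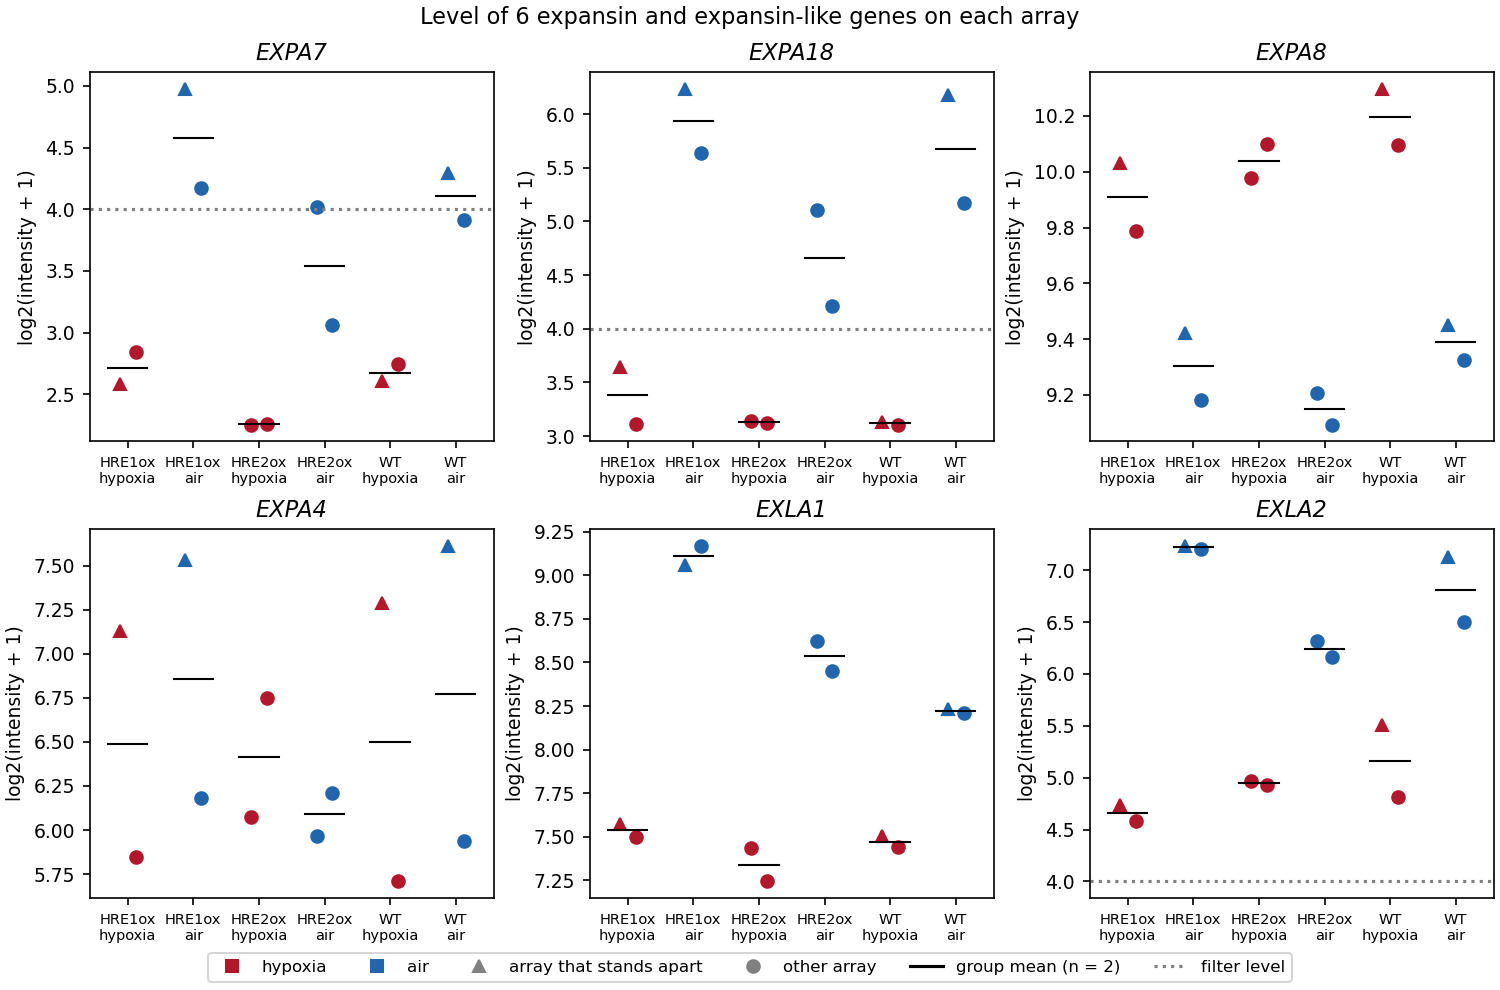
Level of each gene on each of the 12 arrays, as log2(intensity + 1), with hypoxia in red and air in blue within each genotype, black bars for the mean of 2 arrays, triangles for the 4 arrays that stand apart in the thr control, and a dotted line at the filter level of 4. For EXPA7, EXPA18, EXLA1 and EXLA2 every hypoxia array lies under every air array, for EXPA8 every hypoxia array lies above, and for EXPA4 the triangles stand above the circles in both conditions.

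Both root hair expansins fell in every genotype. EXPA18 read 3.64 and 3.12 in HRE1ox hypoxia, against 6.23 and 5.64 in HRE1ox air. It read 3.14 and 3.12 in HRE2ox hypoxia, against 5.11 and 4.22 in HRE2ox air. It read 3.13 and 3.11 in WT hypoxia, against 6.18 and 5.17 in WT air. The 6 hypoxia arrays were thus all lower than the 6 air arrays, and 5 of the 6 hypoxia values were packed between 3.11 and 3.14. A separation of this kind, with all hypoxia arrays below all air arrays, was seen for 6.61% of tested probe sets. In limma's model the differences were -2.56 ± 0.38 (SE) in HRE1ox (adjusted p = 0.0019), -1.53 ± 0.38 in HRE2ox (adjusted p = 0.0426) and -2.56 ± 0.38 in WT (adjusted p = 0.00293), with 2 arrays a group. The HRE2ox call was lost when HRE2ox air replicate 1 was left out (-1.08, adjusted p = 0.309), and also without HRE2ox hypoxia replicate 1 (0.157) or replicate 2 (0.201). The WT call was lost when the 4 arrays that stand apart were left out together (-2.06, adjusted p = 0.0785), which leaves 1 WT array in each condition.

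EXPA7 read 2.58 and 2.84 in HRE1ox hypoxia, against 4.97 and 4.17 in HRE1ox air. It read 2.26 on both HRE2ox hypoxia arrays, against 4.02 and 3.07 in HRE2ox air. It read 2.61 and 2.75 in WT hypoxia, against 4.30 and 3.92 in WT air. Again no hypoxia array reached any air array, and the closest approach was HRE2ox air replicate 2, at 3.07. The differences were -1.86 ± 0.33 (SE) in HRE1ox (limma adjusted p = 0.00494), -1.28 ± 0.33 in HRE2ox (adjusted p = 0.0477) and -1.43 ± 0.33 in WT (adjusted p = 0.0300). The WT call for EXPA7 was lost without any 1 of the 4 WT arrays (adjusted p from 0.0704 to 0.169). The HRE2ox call was lost without air replicate 1 (-0.81, adjusted p = 0.320), hypoxia replicate 1 (0.175) or hypoxia replicate 2 (0.214). Leaving out the 4 arrays that stand apart ended the calls in HRE1ox (-1.33, adjusted p = 0.163), HRE2ox (0.0790) and WT (-1.17, adjusted p = 0.307). Averaged over the 3 genotypes, EXPA7 differed by -1.52 ± 0.19 (limma adjusted p = 0.000332) and EXPA18 by -2.21 ± 0.22 (adjusted p = 7.71e-05). Without the 4 arrays that stand apart these means were -1.26 for EXPA7 and -2.04 for EXPA18.

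The low end of both probe sets limits how these falls can be read. All 6 hypoxia readings of each gene lay under the filter level of 4, as did 2 of the 6 air readings of EXPA7 and 0 of the 6 of EXPA18. Within its own array, EXPA18 ranked at percentiles 33.6 to 40.1 of all probe sets in hypoxia, against 44.0 to 59.7 in air. With a pseudocount of 16, which damps low readings, the calls for EXPA7 in HRE2ox (-0.45, limma adjusted p = 0.218) and WT (-0.59, 0.0976) and for EXPA18 in HRE2ox (-0.78, 0.139) were lost. The same calls were lost when no probe set was filtered out (adjusted p = 0.115, 0.0815 and 0.109). With hypoxia set at the filter level, EXPA18 was at least 1.94 lower in HRE1ox (at least 3.82-fold lower), at least 0.66 lower in HRE2ox (at least 1.58-fold lower) and at least 1.68 lower in WT (at least 3.20-fold lower). For EXPA7 the same bound was 0.57 in HRE1ox (at least 1.49-fold lower) and 0.11 in WT (at least 1.08-fold lower), and none could be set in HRE2ox, where the air mean of 3.54 was itself under that level. These bounds are taken from the air means and carry no error. WT air replicate 2 read 3.92 for EXPA7, under that level, so the WT bound does not hold for that array.

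Of 27 listed root hair genes, 3 had an assigned probe set and 2 were tested. Of these 2, 1 was called lower in each genotype and 1 was not called in any single genotype. In the mean response over the 3 genotypes both were called lower, beside 12.8% of tested probe sets. GH9C1, a root hair member of the endoglucanase family GH9, read 3.31 and 3.07 in HRE1ox hypoxia, against 6.14 and 5.64 in HRE1ox air. It read 2.88 and 2.75 in HRE2ox hypoxia, against 5.24 and 4.57 in HRE2ox air. It read 3.09 and 3.37 in WT hypoxia, against 5.64 and 5.23 in WT air. Its falls were called in HRE1ox (-2.70 ± 0.26 SE, limma adjusted p = 0.000125), HRE2ox (-2.09 ± 0.26, adjusted p = 0.000966) and WT (-2.20 ± 0.26, adjusted p = 0.000678). Every hypoxia reading of GH9C1 lay under the filter level, as for EXPA7 and EXPA18, so the size of its falls is uncertain. No lower bound was set for these falls. XTH26, another gene with a probe set, lay under the filter. The summed level of the 3 genes was made up almost wholly of the tested gene that was not called in any single genotype. This sum was 10.04 to 10.22 in HRE1ox hypoxia, against 10.45 to 10.54 in HRE1ox air. It was 10.07 to 10.11 in HRE2ox hypoxia, against 10.44 to 10.55 in HRE2ox air, and 10.05 to 10.21 in WT hypoxia, against 10.44 to 10.53 in WT air. No root hair marker read 0, which does not show detection, since XTH26, under the filter, still averaged 2.30 in HRE1ox hypoxia. PYK10, the only assigned gene of 11 on the root list, fell in HRE1ox (-0.65 ± 0.13, limma adjusted p = 0.0109). It was not called in HRE2ox (-0.25, 0.395) or WT (-0.19, 0.577). Its mean response over the 3 genotypes was called lower (-0.36 ± 0.08, adjusted p = 0.00748). PORB, of green tissue, was not called in HRE1ox (-0.21, limma adjusted p = 0.747), HRE2ox (-0.36, 0.639) or WT (-0.49, 0.501). The mean response of PORB was of similar size with a wider error, and was not called (-0.35 ± 0.17, adjusted p = 0.180). Whether a change in the amount of root or root hair RNA took part in the falls of EXPA7 and EXPA18 was not tested.

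EXPA8, an alpha-expansin outside the root hair pair, was the only one of the 6 to rise. It read 10.03 and 9.79 in HRE1ox hypoxia, against 9.42 and 9.18 in HRE1ox air. It read 9.98 and 10.10 in HRE2ox hypoxia, against 9.21 and 9.09 in HRE2ox air. It read 10.30 and 10.10 in WT hypoxia, against 9.45 and 9.33 in WT air. Every hypoxia array was above every air array, a separation seen for 5.1% of tested probe sets. The rises were 0.61 ± 0.15 (SE) in HRE1ox (limma adjusted p = 0.0251), 0.89 ± 0.15 in HRE2ox (adjusted p = 0.00563) and 0.81 ± 0.15 in WT (adjusted p = 0.00911), or 1.52-fold, 1.85-fold and 1.75-fold. These are small rises on steady readings, and single genotypes depended on single arrays. The HRE1ox call was lost without air replicate 2 (adjusted p = 0.150) or hypoxia replicate 1 (0.154), the HRE2ox call without air replicate 2 (0.0536) or hypoxia replicate 2 (0.0603), and the WT call without air replicate 2 (0.0703) or hypoxia replicate 1 (0.0759). Without the 4 arrays that stand apart the rise was 0.61 in HRE1ox (adjusted p = 0.129) and 0.77 in WT (0.111). The mean over the 3 genotypes was 0.77 ± 0.08 (limma adjusted p = 0.000163) with all arrays and 0.76 without those 4.

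EXPA4, another alpha-expansin, showed no called response, and in HRE1ox and WT its readings differed more between replicates than between hypoxia and air. It read 7.13 and 5.85 in HRE1ox hypoxia, against 7.53 and 6.18 in HRE1ox air. It read 6.08 and 6.75 in HRE2ox hypoxia, against 5.97 and 6.21 in HRE2ox air. It read 7.29 and 5.71 in WT hypoxia, against 7.61 and 5.94 in WT air. Replicate 1 exceeded replicate 2 by 1.28 to 1.68 in the 4 HRE1ox and WT groups, while replicate 1 minus replicate 2 was -0.67 under hypoxia and -0.24 in air for HRE2ox. Between same-numbered arrays, hypoxia was below air in all 4 pairs of HRE1ox and WT and above air in both pairs of HRE2ox. The 4 high readings, 7.13 to 7.61, were those of the arrays that stand apart in the thr control, and the other 8 read 5.71 to 6.75. The part of whatever sets those arrays apart in these readings was not tested. The differences were -0.37 ± 0.72 (SE) in HRE1ox (limma adjusted p = 0.835), 0.33 ± 0.72 in HRE2ox (0.903) and -0.28 ± 0.72 in WT (0.944), and their 95% intervals, -1.98 to 1.24, -1.29 to 1.94 and -1.89 to 1.34, cover sizable changes either way. With replicate as a block in the 8 HRE1ox and WT arrays the error shrank to 0.12 around the same differences, which remained uncalled (adjusted p = 0.0652 in HRE1ox and 0.187 in WT).

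Both expansin-like genes fell in every genotype. EXLA1 read 7.58 and 7.50 in HRE1ox hypoxia, against 9.06 and 9.17 in HRE1ox air. It read 7.44 and 7.24 in HRE2ox hypoxia, against 8.62 and 8.45 in HRE2ox air. It read 7.51 and 7.44 in WT hypoxia, against 8.23 and 8.21 in WT air. The hypoxia readings lay within 7.24 to 7.58 whatever the genotype, while the air readings formed 3 separate steps, HRE1ox above HRE2ox above WT. None of these steps between genotypes passed the test. Each step is 2 arrays against 2, and the share of probe sets with such steps was not counted. The differences were -1.58 ± 0.13 (SE) in HRE1ox (limma adjusted p = 4.38e-05), -1.20 ± 0.13 in HRE2ox (0.000373) and -0.75 ± 0.13 in WT (0.00612), which makes its hypoxia level 2.98-fold, 2.29-fold and 1.68-fold lower. No single array decided a call for EXLA1. The WT call was lost without the 4 arrays that stand apart, at a difference of -0.77 (adjusted p = 0.145).

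EXLA2 read 4.73 and 4.58 in HRE1ox hypoxia, against 7.23 and 7.20 in HRE1ox air. It read 4.96 and 4.92 in HRE2ox hypoxia, against 6.32 and 6.16 in HRE2ox air. It read 5.51 and 4.82 in WT hypoxia, against 7.12 and 6.50 in WT air. All 6 hypoxia readings were below all 6 air readings, and HRE1ox held both the highest air values and the lowest hypoxia values. Its differences were -2.56 ± 0.25 (SE) in HRE1ox (limma adjusted p = 0.000135), -1.295 ± 0.25 in HRE2ox (0.0124) and -1.65 ± 0.25 in WT (0.00312), making its hypoxia level 5.91-fold, 2.45-fold and 3.14-fold lower. The HRE2ox call was lost without any 1 of its 4 arrays (adjusted p from 0.0610 to 0.106), although the difference then ranged only from -1.37 to -1.22. Without the 4 arrays that stand apart, EXLA2 differed by -2.62 in HRE1ox, -1.295 in HRE2ox and -1.68 in WT. With 1 array left in each HRE1ox and WT group, that fit holds no spread of those genotypes. When the 4 arrays of WT were fitted alone, with fewer degrees of freedom, the WT calls for EXLA2 (limma adjusted p = 0.0937), EXLA1 (0.0889) and EXPA8 (0.0947) were lost, as was that of EXPA8 in HRE1ox fitted alone (0.164) and of EXPA7 in HRE2ox fitted alone (0.0790).

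Set side by side, the root hair pair changed by a mean of -2.21 in HRE1ox, -1.41 in HRE2ox and -1.99 in WT, and the other 4 genes by -0.97, -0.32 and -0.47. The expansin-like pair alone changed by -2.07 in HRE1ox, -1.25 in HRE2ox and -1.20 in WT. The means of the root hair pair rest on hypoxia readings that all lay under the filter level, so their size is uncertain and no order between the pair and the other genes is drawn from them. None of these means was tested.

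Few other members of the superfamily could be set beside them. Of 36 listed expansin and expansin-like genes, 18 had an assigned probe set, 12 were tested and 6 lay under the filter, so 6 tested genes besides those above remained. Over the 12 tested genes, 1 rose, 6 fell and 5 were not called in HRE1ox, 1 rose, 5 fell and 6 were not called in HRE2ox, and 1 rose, 4 fell and 7 were not called in WT. The median differences of these 12 were -0.91, -0.55 and -0.51, against 0.00, -0.03 and -0.01 over all tested probe sets. These counts and medians include the 6 genes above, and in WT every called gene was one of them. EXPA16, an alpha-expansin, read 4.45 and 4.59 in HRE1ox hypoxia, against 6.13 and 5.79 in HRE1ox air, and fell there (-1.44 ± 0.27 SE, limma adjusted p = 0.00666). Its differences in HRE2ox (-0.58, adjusted p = 0.304) and WT (-0.54, 0.365) were not called. EXPA9, an alpha-expansin, read 4.49 and 4.23 in HRE1ox hypoxia, against 6.22 and 5.27 in HRE1ox air, and fell there (-1.39 ± 0.37, adjusted p = 0.0405). In HRE2ox it differed by -0.52 (adjusted p = 0.580) and in WT by -0.85 (0.286). EXLB1, of the expansin-like family B, read 5.01 and 5.10 in HRE2ox hypoxia, against 6.06 and 5.65 in HRE2ox air, and fell there (-0.80 ± 0.17, adjusted p = 0.0199). It differed by -0.43 in HRE1ox (adjusted p = 0.150) and by -0.21 in WT (0.671). None of these responses was shown to differ from that of WT, since the interactions were -0.90 for EXPA16 (limma adjusted p = 0.855) and -0.54 for EXPA9 (1.0) in HRE1ox and -0.60 for EXLB1 (1.0) in HRE2ox. The mean response over the 3 genotypes was called lower for EXPA16 (-0.86, limma adjusted p = 0.00328), EXPA9 (-0.92, 0.0135) and EXLB1 (-0.48, 0.00614). Over the 12 tested genes it was called higher for 1, lower for 7 and not called for 4. Of all tested probe sets it was called higher for 9.49% and lower for 12.8%. EXLA3, which is the neighbour of EXLA1 on chromosome 3 in the TAIR10.1 annotation, was not called in any genotype, with differences of 0.42 in HRE1ox, 0.23 in HRE2ox and 0.01 in WT (adjusted p = 0.127, 0.539 and 0.994).

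**Figure D2:**
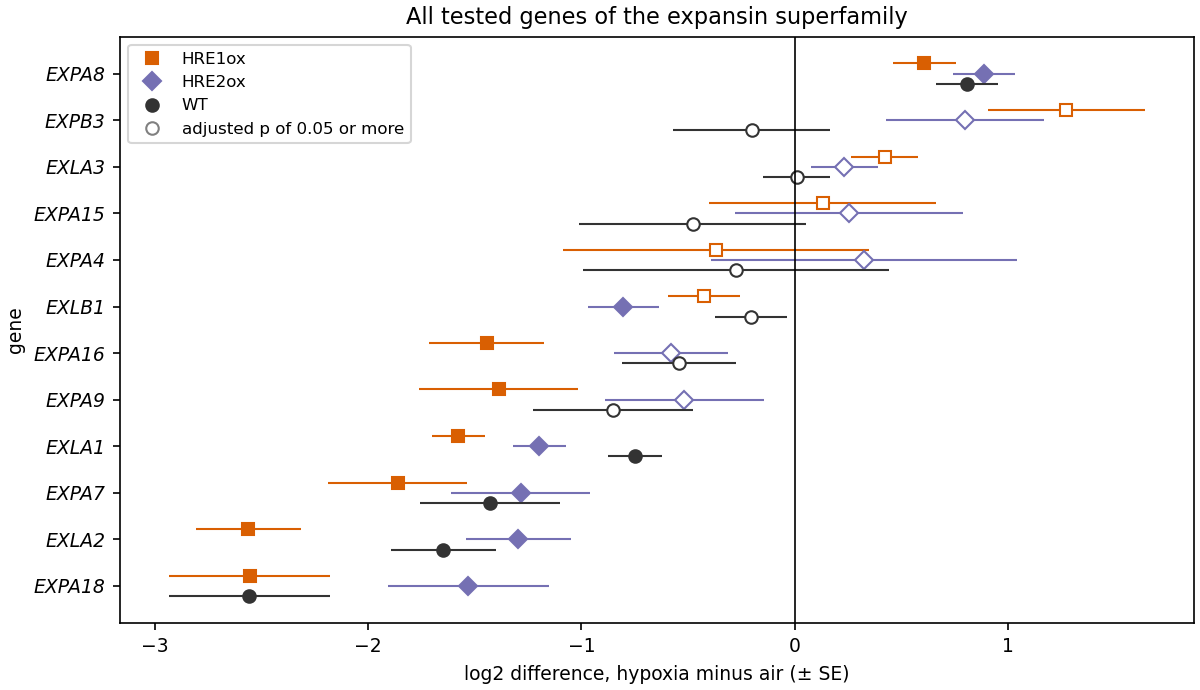
Hypoxia minus air difference, in log2(intensity + 1) units with its SE, for the 12 tested genes of the expansin superfamily in HRE1ox (squares), HRE2ox (diamonds) and WT (circles). Filled symbols are called at an adjusted p under 0.05. EXPA8 stands alone on the right with filled symbols in all 3 genotypes, and EXLA1, EXPA7, EXLA2 and EXPA18 are filled on the left in all 3.

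No difference between a transgenic line and WT passed the test. Between line and WT, 0 of 6 genes were called by limma in air or in hypoxia, where all tested probe sets were called at 0.00731% for HRE1ox in air, 0.935% for HRE2ox in air, 0.84% for HRE1ox in hypoxia and 0.0731% for HRE2ox in hypoxia. At an unadjusted p under 0.05 the numbers were 1 gene for HRE1ox in air, 3 for HRE2ox in air, 0 for HRE1ox in hypoxia and 0 for HRE2ox in hypoxia. The share of all tested probe sets under that looser cutoff was not counted. These numbers, here and below, are therefore not to be set against the percentages. The largest difference relative to its error was that of EXLA1 in air, 9.06 and 9.17 in HRE1ox against 8.23 and 8.21 in WT. The difference was 0.89 ± 0.13 (SE, 95% interval 0.61 to 1.17, 1.86-fold). Its unadjusted limma p was 4.8e-05 and its adjusted p was 0.073, just outside the threshold. Under 14 other settings the adjusted p ran from 0.0159 to 0.92, and 3 of them called it: no filter on low values (0.0291), replicate as a block in the 8 HRE1ox and WT arrays (0.0338), and the 4 arrays that stand apart as a block (0.0159). In hypoxia EXLA1 differed between HRE1ox and WT by only 0.06 ± 0.13 (95% interval -0.22 to 0.35).

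In HRE2ox air the differences from WT ran in both directions. EXPA18 differed by -1.01 ± 0.38 (SE, limma adjusted p = 0.25), with 5.11 and 4.22 in HRE2ox air against 6.18 and 5.17 in WT air. EXLA2 differed by -0.57 ± 0.25 (adjusted p = 0.313) and EXLA1 by 0.32 ± 0.13 (adjusted p = 0.275). EXPA7 was at -0.56 ± 0.33 (adjusted p = 0.458). In hypoxia every interval of HRE2ox minus WT included 0, the narrowest being that of EXLA1, -0.42 to 0.15, and the widest that of EXPA4, -1.70 to 1.53.

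**Figure D3:**
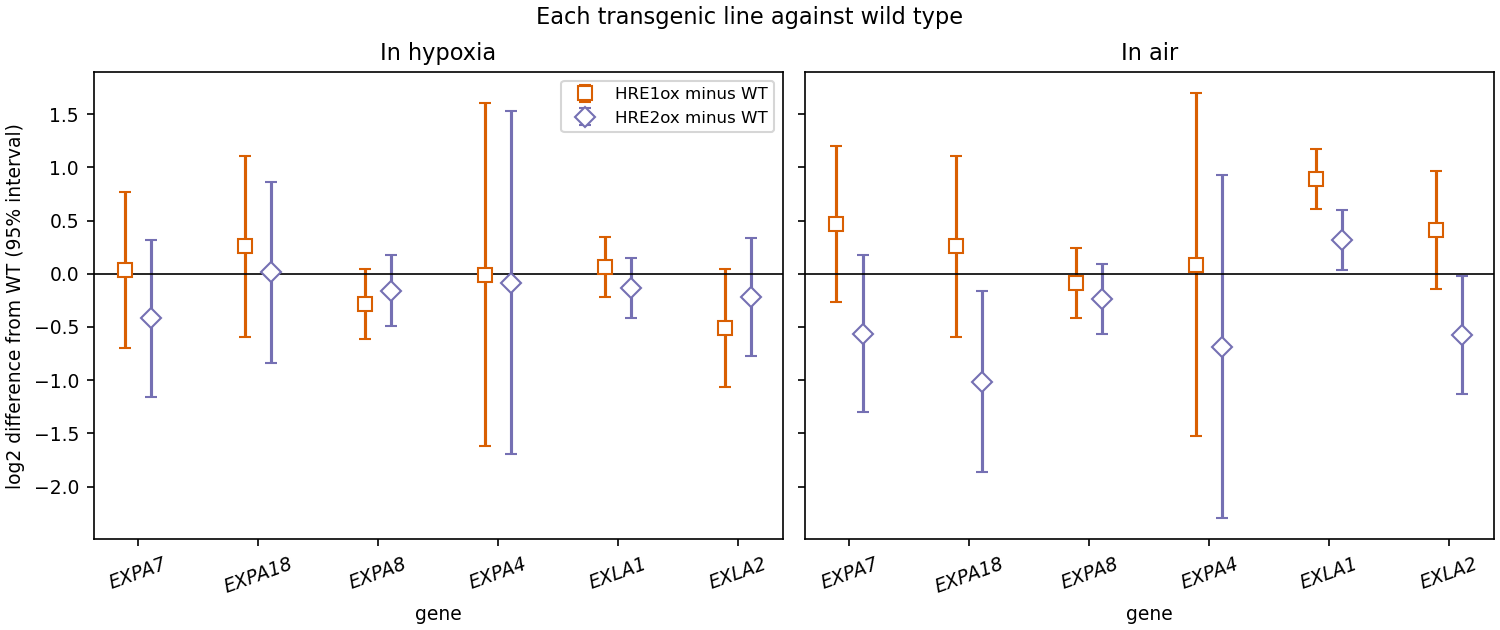
Difference of HRE1ox (squares) and HRE2ox (diamonds) from WT for each gene in hypoxia (left) and air (right), in log2(intensity + 1) units with 95% intervals from limma. Open symbols mark that no difference is called; in air the interval of EXLA1 in HRE1ox, 0.61 to 1.17, lies clear of 0, and those of EXPA4 are the widest.

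Between the transgenic lines in air, 0 of 6 genes were called (0.533% of tested probe sets were). At an unadjusted p under 0.05, a cutoff with no background share counted, there were 4. The arrays that stand apart include HRE1ox arrays and no HRE2ox array. For EXPA4 the difference was 0.77 ± 0.72 (SE) and ran from 0.03 to 1.44 under other settings. The differences were 1.27 ± 0.38 (SE) for EXPA18 (limma adjusted p = 0.206), 1.03 ± 0.33 for EXPA7 (0.23), 0.98 ± 0.25 for EXLA2 (0.152) and 0.58 ± 0.13 for EXLA1 (0.0995). EXLA1 was called with no filter (adjusted p = 0.0477) and with the arrays that stand apart as a block (0.0417), and EXLA2 with that block (0.0440, at 0.79). In hypoxia 0 of 6 genes were called between the lines (0.65% of tested probe sets were), and 0 had an unadjusted p under 0.05.

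A response that passes the test in each genotype may still differ in size between them, which the interaction tests. For HRE1ox 0 of 6 interactions were called (0.0804% of tested probe sets were) and for HRE2ox 0 of 6 (0.0292%). At an unadjusted p under 0.05, a cutoff with no background share counted, the numbers were 2 and 1. EXLA1 fell further in HRE1ox than in WT by -0.83 ± 0.18 (SE, 95% interval -1.23 to -0.43) at an unadjusted limma p of 0.00107, which did not survive adjustment (adjusted p = 0.208). For EXLA2 the interaction in HRE1ox was -0.91 ± 0.35 (95% interval -1.70 to -0.13, adjusted p = 0.791). For EXLA1 in HRE2ox it was -0.45 ± 0.18 (95% interval -0.85 to -0.05, adjusted p = 1.0). EXPA18, at -1.53 in HRE2ox and -2.56 in WT, had an interaction of 1.03 ± 0.53 (95% interval -0.18 to 2.23, unadjusted p = 0.0863). The interval of EXPA8 was -0.67 to 0.27 in HRE1ox and -0.39 to 0.55 in HRE2ox. These interactions and the differences of each line from WT in air share the WT air arrays.

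The order of the 6 group means differed between genes. Overlap is judged here on 2 arrays against 2, and its share over all probe sets was not counted. No difference between genotypes within a condition was called for these genes. For EXPA7 it ran HRE1ox air (4.57), WT air (4.11), HRE2ox air (3.54), HRE1ox hypoxia (2.71), WT hypoxia (2.68) and HRE2ox hypoxia (2.26), where neighbours overlapped except HRE2ox air with HRE1ox hypoxia and WT hypoxia with HRE2ox hypoxia. EXPA18 had the same order in air, with HRE1ox air (5.93) overlapping WT air (5.68) and both above HRE2ox air (4.66), and the hypoxia groups at 3.38 in HRE1ox, 3.13 in HRE2ox and 3.12 in WT overlapped. For EXLA1 the air means of 9.11 in HRE1ox, 8.54 in HRE2ox and 8.22 in WT were all separate, while in hypoxia HRE1ox (7.54) overlapped WT (7.47) and HRE2ox (7.34) lay just below both. For EXLA2 the air order was HRE1ox (7.22), WT (6.81) and HRE2ox (6.24), all separate, and in hypoxia WT (5.16) overlapped HRE2ox (4.94) while HRE1ox (4.66) lay below. EXPA8 overlapped between neighbouring genotypes within each condition, from 10.20 in WT hypoxia, 10.04 in HRE2ox hypoxia and 9.91 in HRE1ox hypoxia to 9.39 in WT air, 9.30 in HRE1ox air and 9.15 in HRE2ox air. The 6 means of EXPA4 lay between 6.09 and 6.86, and each overlapped the next.

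Across the 12 arrays EXPA7 and EXPA18 followed one another with a Pearson r of 0.963, a description over arrays that share the oxygen contrast. Each was the third most similar to the other among 7340 probe sets with an assigned gene. Within the 6 air arrays r was 0.932, and within the 6 hypoxia arrays, where both readings were under the filter level, it was 0.033. EXPA18 and EXLA2 had r = 0.951 over 12 arrays, 0.911 within air and -0.259 within hypoxia, and EXLA1 and EXLA2 had 0.905, 0.519 and -0.039. EXPA8 ran opposite to the 4 falling genes over all 12 arrays (r from -0.867 to -0.749), which span the oxygen contrast. Within the 6 air arrays its r was 0.773 with EXPA7, 0.850 with EXPA18, 0.633 with EXLA2 and -0.156 with EXLA1. Within the 6 hypoxia arrays r was -0.225, -0.040, 0.861 and -0.110 in the same order. EXPA4 had r from 0.106 to 0.340 with the 5 other genes over the 12 arrays. Within air its r ran from 0.075 with EXLA1 to 0.784 with EXPA8, and was 0.762 with EXPA18. Within hypoxia it ran from -0.274 with EXPA7 to 0.634 with EXPA8.

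**Figure D4:**
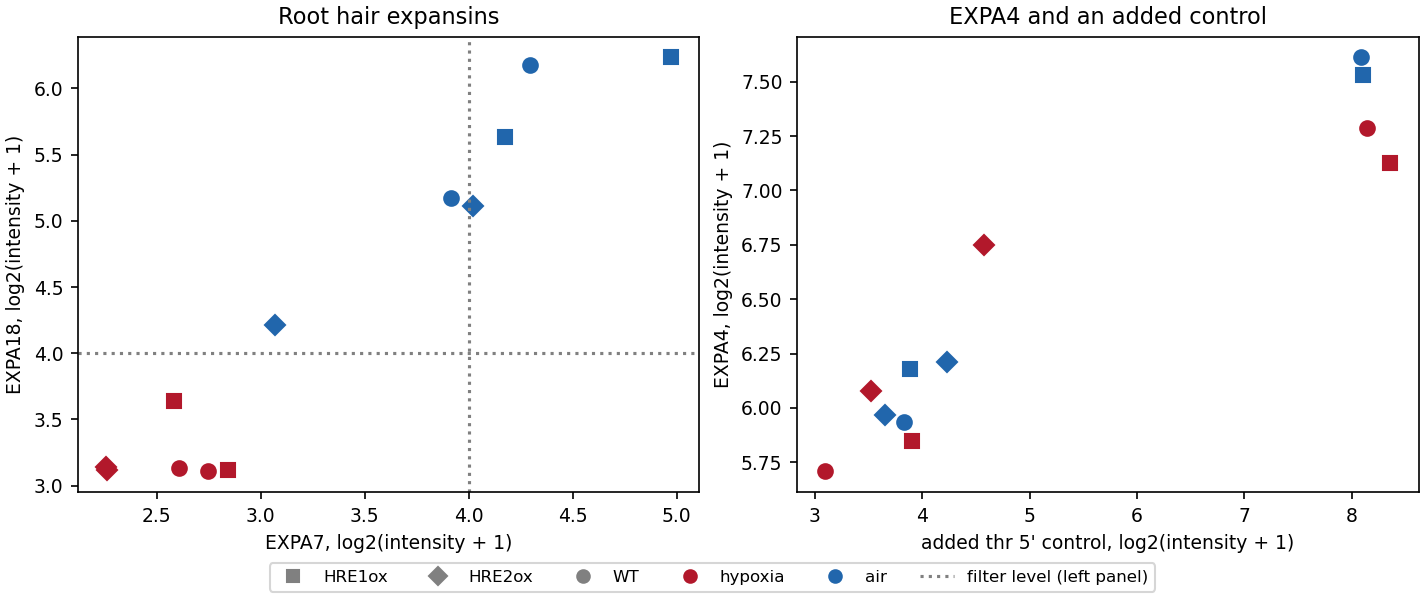
Left, EXPA18 against EXPA7 on each of the 12 arrays in log2(intensity + 1), with dotted lines at the filter level of 4 and the 2 HRE2ox hypoxia arrays lying on one another. Right, EXPA4 against the 5′ probe set of the added thr control in the same unit. In the left panel air arrays spread along a rising line and hypoxia arrays cluster at the low end; in the right panel the 4 arrays with thr above 8 carry the 4 highest EXPA4 readings, 7.13 to 7.61.

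The genes most like each member over the 12 arrays were picked by Pearson r alone. Those arrays span the oxygen contrast, so genes near a responding member tend to be called as well. Their calls below are description and not separate evidence. GH9C1 was the nearest to both root hair expansins, with r = 0.972 to EXPA7 and 0.978 to EXPA18. Next came AT4G25790 for EXPA7 (0.966) and AT5G61340 for EXPA18 (0.974). EXPA8 was nearest to AT2G41730 (0.986), AT5G05250 (0.982) and MYBC1 (0.971), all called higher in hypoxia in each genotype; AT2G41730 rose by 2.63 in HRE1ox, 4.15 in HRE2ox and 3.33 in WT. EXLA1 was nearest to AT5G23750 (0.975), AT2G35380 (0.971) and AT4G25780 (0.967). AT4G25780 fell in HRE1ox (-1.61, limma adjusted p = 0.000355) and HRE2ox (-1.04, 0.00778), and was not called in WT (-0.48, 0.194). EXLA2 was nearest to AT5G58900 (0.983), AT4G25260 (0.982) and AT4G29700 (0.977). EXPA4 was nearest to AT5G57290 (0.975), AT5G20700 (0.971) and AT5G20885 (0.966), and none of those 3 was called in any genotype's hypoxia response (adjusted p from 0.764 to 0.999).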

How the data were processed

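The deposited values were linear probe set intensities computed by the authors with GCRMA, per the submitters' processing notes. No source used here gives its version or settings. The table held 22810 probe sets, 64 of them controls. Values were transformed to log2(intensity + 1), with no further normalization. Probe sets were kept where at least 2 arrays reached log2 4, which removed 9059 and kept 13687. One limma (3.58.1, R 4.3.3) model with lmFit and eBayes was fitted to the 6 groups of 2 arrays, with 6 residual degrees of freedom, and p-values were adjusted over all 13687 probe sets. The number of arrays limits precision. The fit was tested on simulated data. The platform annotation gave 13513 probe sets 1 gene, 503 several and the rest none, and only those with 1 gene were named; of the tested probe sets, 7341 had 1 gene. TAIR10.1 supplied names and neighbours only. Named genes were the 6 members, other called superfamily genes, listed markers and the 3 nearest genes by Pearson r; EXLA3 was named as a neighbour, after its values were seen. The members and lists were chosen with earlier results of these data known. Alternatives were replicate blocks, comparison-only arrays, median centring, a pseudocount of 16, other filters, trended robust variances and leaving out arrays. The single-gene values of 1 listed root hair marker are not reported here.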

Additional observations from a re-analysis of the deposited data

How the results depend on the processing

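Of 1044 differences recomputed for the 6 genes, 946 kept their direction and side of the threshold, 39 lost a call, 6 gained one and 53 turned direction, none of the last being a called value. The mean hypoxia response over the 3 genotypes was called for 4 to 5 genes under 20 alternatives, the lower number arising where the filter at log2 6 drops EXPA7. Without 1 array the number called was 4 to 5 in HRE1ox, 1 to 3 in HRE2ox and 3 to 4 in WT. Fitting only the arrays of the comparison left 2 genes called in WT. In HRE2ox a pseudocount of 16 left 3 called and no filter left 3. For HRE1ox against WT in air, 1 gene was called with no filter, 1 with a replicate block in the 8 HRE1ox and WT arrays and 1 with the arrays that stand apart as a block; between HRE1ox and HRE2ox in air the numbers were 1 with no filter and 2 with that block. Without the 4 arrays that stand apart, 3 genes were called in HRE1ox and 1 in WT. The last block, the 8-array block and that omission were chosen after seeing the data. The replicate block over 12 arrays changed no call for the 6 genes. Same-numbered arrays correlated at 0.67 to 0.75 in their deviations among HRE1ox and WT groups and at 0.35 between the 2 HRE2ox groups. Between HRE2ox and the HRE1ox and WT groups they correlated at -0.58 to -0.24. The numbers were therefore not taken to pair samples over all 12 arrays. Each gene had 1 probe set, so the alternative of another probe set could not be run.

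The cause of the turned directions was not tested. EXPA18's HRE1ox interaction became -0.0867 with a pseudocount of 16 and -0.46 without the 4 arrays. With the arrays that stand apart as a block, EXPA4 became 0.0502 for HRE2ox against WT in air, 0.65 in hypoxia and -0.66 for HRE1ox against HRE2ox in hypoxia, where EXPA18 became -0.0215. Without those arrays EXPA4 became 0.15 for HRE2ox against WT in air, 0.70 in hypoxia, 0.14 for HRE1ox against WT in hypoxia and -0.57 between the lines in hypoxia, EXPA18 became -0.0160 there, EXLA2 became 0.13 for HRE2ox against WT in hypoxia, and EXPA7's HRE2ox interaction became -0.11. Leaving out 1 array, EXPA4's hypoxia difference ran from -1.05 to 0.31 in HRE1ox, -0.0117 to 0.66 in HRE2ox, -1.11 to 0.56 in WT and -0.39 to 0.17 over genotypes. Its line differences ran from -0.76 to 0.92 (HRE1ox) and -1.52 to 0.15 (HRE2ox) in air, and from -0.80 to 0.78 (HRE1ox), -0.87 to 0.70 (HRE2ox) and -0.57 to 0.71 (between lines) in hypoxia, and its interactions from -0.93 to 0.74 (HRE1ox) and -0.24 to 1.44 (HRE2ox). EXPA18 ran from -0.24 to 0.76 (HRE1ox against WT, air), -0.0039 to 0.52 (the same, hypoxia), -0.0160 to 0.51 (between lines, hypoxia) and -0.50 to 0.50 (HRE1ox interaction). EXPA8 ran from -0.21 to 0.0341 (HRE1ox against WT, air) and -0.0203 to 0.18 (HRE2ox interaction), EXPA7 from -0.0931 to 0.16 (HRE1ox against WT, hypoxia) and -0.33 to 0.62 (HRE2ox interaction), and EXLA2 from -0.57 to 0.13 (HRE2ox against WT, hypoxia). Having 2 arrays a group and readings near the low end of the scale for EXPA7 and EXPA18 limits what could be called.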
